A study of Mus musculus with 12 samples.

Results

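The genes described here encode the machinery of oxidative phosphorylation in mouse primary hippocampal neurons given a mimic of miR-148a-3p or its negative control. They were chosen by name: protein-coding genes whose symbols start with Nduf, Uqcr, Atp5, Cox4i, Cox5, Cox6, Cox7 or Cox8, the 4 Sdh genes, and the 13 protein-coding genes of the mitochondrial genome. These names gave 106 genes, of which 93 are nuclear. A gene was tested when 6 or more of the 12 libraries held 5 counts or more of it, which 98 of the 106 members did, among 18847 tested genes of 48709 in the count files. The tested members comprised 46 nuclear genes named for complex I, 4 for complex II, 8 for complex III, 16 of 18 for complex IV and 17 for complex V, together with 7 of the 13 mitochondrially encoded genes. Just outside the threshold lay Cox8c, with 0 counts in every library, and Cox4i2, the hypoxia-linked isoform of subunit 4, with a mean of 2 counts and at least 5 in 1 library. Just inside it lay Cox7b2, with a mean of 5.75 counts and at least 5 in 8 libraries, and Ndufa4l2, with a mean of 8.08 and at least 5 in 10.

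Both groups were primary hippocampal cultures of CD1 mice, prepared from embryos at day 17 of gestation, dosed on day 10 in vitro and collected 48 h later on day 12. The mimic, a synthetic double of the mature microRNA, or the negative control oligonucleotide was packed in lipid nanoparticles, and the methods of the study describe apolipoprotein E4 as an additive to such cultures. Each group held 6 libraries of poly(A)-selected RNA. The hippocampi of a litter were pooled in these cultures, which also hold glia, and the labels do not say whether the replicates were separate cultures, so the p-values below measure the spread between these samples, which may be technical. The comparison asks which transcripts differ in neuronal cultures that received more miR-148a-3p.

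Oxidative phosphorylation passes electrons from NADH (complex I) or succinate (complex II) through complex III to oxygen at complex IV, and the proton gradient built on the way drives ATP synthesis at complex V. The mitochondrial genome encodes a few hydrophobic core subunits of every complex except complex II, and the nucleus encodes all the others, so that both genomes have to supply parts of the same complexes. Neurons depend on this pathway for the ATP that restores ion gradients after firing.

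Library totals ran from 20018234 to 37149112 counts. Controls 1 and 2 stood apart from the other libraries in the dependence of their counts on base composition. The GC slope, which is the change in a gene's log2 deviation from its mean over the 12 libraries for every 10 percentage points of GC content, was 0.27 in control 1 and 0.14 in control 2, against -0.11 to 0.00 in controls 3 to 6 and -0.08 to 0.01 in the 6 mimic libraries. The group means of the slope differed by -0.03 (mimic minus control, two-sided exact permutation test, p = 0.675). The results that depend on controls 1 and 2 are given below with and without them.

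The mimic carried the mature miR-148a-3p sequence, and the negative control an unrelated one. Capitals mark the seed, bases 2 to 8 from the 5′ end, which pairs with target transcripts.

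miR-148a-3p mimic: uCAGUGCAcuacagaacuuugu

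negative control: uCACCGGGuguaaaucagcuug

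A 3′ UTR match to the mimic seed, or to its first 6 bases followed by A, was found in 6 of the 91 tested nuclear members (6.59%), whereas 3307 of 15082 tested genes with an annotated 3′ UTR held one (21.9%). The 3′ UTRs of the members were short, with a median of 203 bases against 1173, and per kb of 3′ UTR the members held 0.158 matches and all these genes 0.169. The seed of the negative control matched 0 of the 91 members and 4.42% of tested genes. The matches lay in Cox5b, Sdhc, Ndufaf4, Ndufab1, Ndufaf7 and Atp5g1, of which Atp5g1 held a pair. Sites of 30 bases are shown for a member of complexes I, II and IV, on build GRCm38, 5′ to 3′ on the strand of the gene, with the match in capitals.

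Ndufaf7, chr17:78947547-78947576 (+): aaacacatatgaGCACTGAttggtttgtta

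Sdhc, chr1:171128075-171128104 (-): cgtgctaggcaaGCACTGAacctgagtcag

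Cox5b, chr1:36693359-36693388 (+): agattagccatTGCACTGgctcctcccata

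Of all tested genes 22.2% passed the test below, and 10.7% passed as lower. Among the 6 genes with a match Ndufaf7 was the single one that passed it, with a log2 fold change of -0.16. The log2 fold changes of the others were -0.06 for Cox5b, -0.01 for Sdhc, 0.05 for Atp5g1, 0.10 for Ndufaf4 and 0.11 for Ndufab1. A match is a description of the sequence and does not show that the site is bound.

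In the comparison of the 6 mimic with the 6 control libraries, 10 of the 91 tested nuclear members rose and 1 fell at an edgeR adjusted p under 0.05. The genes that rose were Ndufc2, Ndufa5, Uqcrb, Uqcrh, Cox8b, Cox7a1, Cox6b2, Atp5o, Atp5mpl and Atp5g3, and the gene that fell was Ndufaf7. The called share was 12.1% of the nuclear members, against 22.2% of all 18847 tested genes. By direction, 11% of the members were higher and 1.1% lower, where the figures for all tested genes were 11.5% and 10.7%. Nearly all members are abundant, and among genes with a mean of at least 100 counts 9.41% of 85 members were higher and 1.18% lower, against 15.1% and 13.3% of 12371 genes. The changes were small. The median log2 fold change was 0.03 over the nuclear members and -0.01 over all tested genes, the median size of the log2 fold change without its sign was 0.056 against 0.119, and 65 of the 91 members had a positive value, as did 8861 of the 18847 genes. In 4 members, Ndufc2, Ndufa5, Cox7a1 and Atp5mpl, every mimic library lay above every control library, while the background for that is 7.43% of tested genes, and in 0 members did every mimic library lie below (background 5.83%). All 10 genes that rose are structural subunits, of which 81 were tested, and the gene that fell is 1 of 10 assembly factors or regulators. These shares, 12.3% higher and 10% lower, were near the 11.5% and 10.7% of all tested genes.

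The count of 10 depended on single libraries. It was 20 without control 1, or 22% of the members, where 14.4% of all tested genes were higher. It was 6 (6.59%) without control 3, control 5, control 6, mimic 1, mimic 2 or mimic 5, where 10.1% to 10.8% of all genes were higher. Without mimic 4 or mimic 6 it was 5 (5.49%), beside 10.7% and 10% of all genes. The median of the nuclear members ran from 0.02 without control 5 to 0.06 without control 1. Correction of each library for its GC trend gave 14 higher and 2 lower, or 17.6% of the members against 31.8% of all tested genes (16% higher and 15.8% lower).

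Markers of dividing cells, of the oligodendrocyte lineage and of astrocytes were called above the share of all tested genes, which was 22.2% (11.5% higher and 10.7% lower). Of the markers of dividing cells 8 of 8 rose, with summed levels of 215 to 249 CPM (counts scaled to the size of the library) in control and 413 to 442 in mimic libraries. Of the oligodendrocyte lineage markers 5 of 8 rose and 1 fell (393 to 681 against 768 to 963 CPM), and of the astrocyte markers 7 of 10 rose and 1 fell (5159 to 5645 against 6244 to 6726 CPM). The fallen astrocyte marker was Gfap, the astrocytic intermediate filament, with a log2 fold change of -0.90. Of the 12 neuronal markers 1 rose and 2 fell (8642 to 9487 against 8659 to 9002 CPM), of 7 mesenchymal markers 1 fell (160 to 206 against 80.7 to 211 CPM), and of 8 microglial markers 2 fell (10.7 to 12.7 against 9.17 to 16.3 CPM). The called shares of these last lists were 25%, 14.3% and 25%, and their summed levels overlapped between the groups. The part of these cells in the results for the oxidative phosphorylation genes was not tested. In bulk RNA of such cultures, fewer cells of a type and less RNA per cell cannot be told apart.

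**Figure D1:**
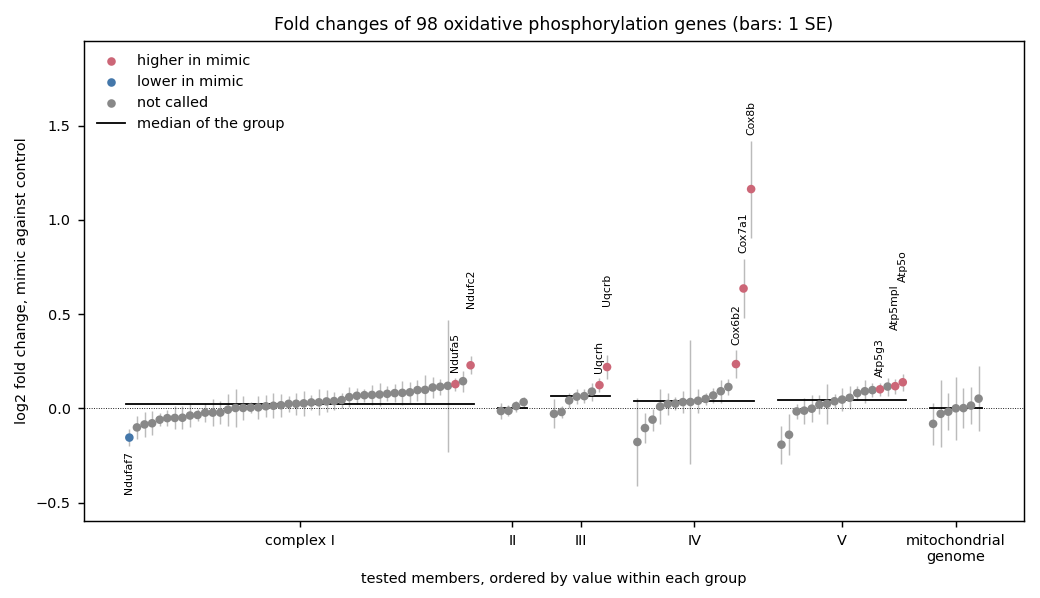
Log2 fold change (mimic over control) of the 98 tested members, grouped by the complex they are named for and by genome. Points are genes, bars are 1 SE, black lines are group medians, and red and blue points passed the test as higher and lower. Most points lie near 0, Cox8b lies at 1.16 and no mitochondrially encoded gene is coloured.

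Complex I, the NADH dehydrogenase, had the fewest calls for its size among complexes with any: 2 of 46 nuclear members rose and 1 fell (6.52%, against 22.2% of all tested genes). The median log2 fold change was 0.03, and ran from 0.01 without control 3 to 0.06 without control 1. Without control 1 the count of higher members was 9. Ndufc2 encodes an accessory subunit of the membrane arm (ENSMUSG00000030647, chr7:97400003-97407802, plus strand, build GRCm38, as for all coordinates of genes below). Its level ran from 65.3 through a median of 75.0 to 79.2 CPM in control and from 80.4 through 86.8 to 91 CPM in mimic libraries, so the groups did not overlap. Ndufc2 rose by 0.23 on the log2 scale (SE 0.0467, adjusted p in edgeR 0.00162). Ndufa5, an accessory subunit of the matrix arm (ENSMUSG00000023089, chr6:24518666-24528013, minus strand), lay between 40.3 and 43.1 CPM (median 40.7) in control and between 43.2 and 46.5 CPM (median 45.1) in mimic libraries. The lowest mimic library was just above the highest control library, and the log2 fold change of Ndufa5 was 0.13 (SE 0.0342, adjusted p in edgeR 0.0111). Both genes passed the test without each of the 12 libraries in turn.

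The lower gene, Ndufaf7 (ENSMUSG00000024082, chr17:78937136-78948052, plus strand), encodes a methyltransferase that acts in the assembly of complex I. Its level was 31.8 to 37.2 CPM (median 33.6) in control and 28.7 to 32.1 CPM (median 30.2) in mimic libraries, ranges that overlapped at their ends. Ndufaf7 fell by 0.16 on the log2 scale (SE 0.0429, adjusted p in edgeR 0.0142), and this call too held without each library in turn. The seed match shown above lies in its 3′ UTR.

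Core subunits of complex I, which carry electrons from NADH, are given next, and those named did not pass the test. Ndufs1 had a log2 fold change of 0.00 (edgeR adjusted p = 0.951), Ndufs3 of 0.02 (0.828), Ndufs7 of 0.00 (0.995) and Ndufs8 of 0.08 (0.409). Ndufv1, which holds the NADH site, had -0.08 (0.427) and its partner Ndufv2 had 0.11 (0.0709). Ndufs7 shows how control 1 widened the control group: its control levels were 38.3 to 66.9 CPM (median 45.5), while its mimic levels were 45.6 to 50.4 CPM (median 48.2). Ndufa4, which is named for complex I but is now placed in complex IV, had 0.04 (0.491), and its hypoxia-linked paralog Ndufa4l2 had 0.12 (0.858) at a mean of 8.08 counts. Control levels per kb of exon ran in this set from 0.238 CPM per kb for Ndufa4l2 to 143 for Ndufa4, with a median of 26.5.

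Complex II, succinate dehydrogenase, which is also an enzyme of the citrate cycle and is encoded by the nucleus alone, moved least of the nuclear sets. By edgeR 0 of its 4 genes passed, 0 reached an unadjusted p under 0.05, and DESeq2 called 0. Sdha, the flavoprotein, measured 317 to 340 CPM (median 326) in control and 325 to 336 CPM (median 327) in mimic libraries, with a log2 fold change of 0.01 (95% interval -0.05 to 0.07, edgeR adjusted p = 0.827). Sdhb, the iron-sulfur subunit, measured 116 to 121 CPM (median 118) against 114 to 120 (median 116), a log2 fold change of -0.01 (0.810). The ranges overlapped in both genes. The membrane anchors Sdhc and Sdhd had log2 fold changes of -0.01 (0.859) and 0.03 (0.475). The 95% intervals of the 4 genes lay together between -0.10 and 0.09.

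In complex III, the cytochrome bc1 complex, 2 of 8 nuclear members rose (25%, where 11.5% of all tested genes were higher), and the median log2 fold change was 0.06. Uqcrb (ENSMUSG00000021520, chr13:66900617-66905378, minus strand), a small subunit at the ubiquinone site, measured 11.4 to 15.3 CPM (median 14) in control and 15 to 17.2 CPM (median 16) in mimic libraries. The log2 fold change of Uqcrb was 0.22 (SE 0.0646, adjusted p in edgeR 0.0208). Of its 50-base stretches 43.4% also occur in annotated transcripts of other genes, and its control level of 15.6 CPM per kb was below the 42.4 to 132 CPM per kb of the other complex III genes, so its level is uncertain where the counting could split or drop such reads. Uqcrh (ENSMUSG00000063882, chr4:116066965-116075071, minus strand), the acidic hinge protein between cytochromes, measured 97.7 to 110 CPM (median 104) against 106 to 120 CPM (median 113). Its log2 fold change was 0.12 (SE 0.0380, adjusted p in edgeR 0.0266). The groups overlapped slightly in both genes. Without mimic 6 the adjusted p of Uqcrb was 0.0514, and Uqcrh lost its call without control 6, mimic 1, mimic 4, mimic 5 or mimic 6. The core proteins Uqcrc1 and Uqcrc2 and the Rieske protein Uqcrfs1 had log2 fold changes of 0.06 (0.254), -0.02 (0.712) and 0.04 (0.524).

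In complex IV, cytochrome c oxidase, 3 of 16 tested nuclear members rose (18.8%, against 11.5% of all tested genes), and all 3 are isoforms known from a tissue other than brain, of which 5 were tested. These were Cox8b and Cox7a1, the heart and muscle forms of subunits 8 and 7a, and Cox6b2, the testis form of subunit 6b. The others of this kind did not pass: Cox6a2, a muscle form, had a log2 fold change of -0.18 (edgeR adjusted p = 0.657) at a mean of 14.7 counts, and Cox7b2, the testis form of subunit 7b, had 0.03 (0.964) at 5.75. Cox8b (ENSMUSG00000025488, chr7:140898945-140900446, minus strand) had the greatest fold of any nuclear member. It measured 0.681 to 2.88 CPM (median 0.957) in control and 2.13 to 3.28 CPM (median 2.54) in mimic libraries. Control 1 alone, at 2.88 CPM, lay among the mimic libraries, and the other 5 controls lay between 0.681 and 1.10 CPM. The log2 fold change of Cox8b was 1.16 (SE 0.257, adjusted p in edgeR 0.00353), on a mean of 56.9 counts per library, and 1.51 without control 1.

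Cox7a1 (ENSMUSG00000074218, chr7:30184144-30186078, plus strand) measured 0.404 to 0.823 CPM (median 0.615) in control and 0.844 to 1.11 CPM (median 0.965) in mimic libraries. These groups did not overlap, and the log2 fold change was 0.64 (SE 0.158, adjusted p in edgeR 0.00698), on a mean of 24.2 counts. Cox6b2 (ENSMUSG00000051811, chr7:4751792-4753094, minus strand) measured 5.75 to 6.90 CPM (median 6.73) against 6.42 to 8.53 CPM (median 7.73), ranges that overlapped. Its log2 fold change was 0.23 (SE 0.0747, adjusted p in edgeR 0.0315), a call lost without control 3, control 5, mimic 2, mimic 3, mimic 4 or mimic 5.

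Per kb of exon, these 3 isoforms were minor transcripts. In control libraries Cox8b stood at 3.48 CPM per kb beside 255 for its widely expressed counterpart Cox8a, Cox7a1 at 1.17 beside 117 for Cox7a2, and Cox6b2 at 5.87 beside 262 for Cox6b1. The widely expressed forms did not pass the test. Cox8a had a log2 fold change of 0.09 (edgeR adjusted p = 0.339), Cox7a2 of 0.07 (0.237) and Cox6b1 of 0.02 (0.832). Cox6a1 measured 159 to 245 CPM (median 170) in control and 166 to 176 CPM (median 170) in mimic libraries, with -0.10 (0.416). Cox4i1, the common form of subunit 4, measured 251 to 338 CPM (median 262) against 265 to 306 CPM (median 284), with 0.04 (0.725). Cox5a and Cox5b, which sit near the catalytic core, had 0.02 (0.675) and -0.06 (0.528), and Cox7a2l, a factor of supercomplex formation, had 0.03 (0.745).

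In complex V, the ATP synthase, 3 of 17 members rose (17.6%, against 11.5% of all tested genes). The median log2 fold change was 0.05, and ran from 0.02 without control 5 to 0.08 without control 2. Atp5o (ENSMUSG00000022956, chr16:91925214-91931687, minus strand) encodes the subunit that ties the catalytic head to the peripheral stalk. It measured 103 to 123 CPM (median 109) in control and 119 to 128 CPM (median 122) in mimic libraries, with a log2 fold change of 0.14 (SE 0.0444, adjusted p in edgeR 0.0330). Controls 1 and 2, at 123 and 119 CPM, were the controls that reached the mimic range. Of its 50-base stretches 50.3% also occur in another annotated gene, so its level is uncertain.

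Atp5mpl (ENSMUSG00000021290, chr12:111961375-111966977, minus strand), a small proteolipid of the membrane part, measured 70.7 to 81.2 CPM (median 80.7) against 82.4 to 91.7 CPM (median 84.5), without overlap. Its log2 fold change was 0.12 (SE 0.0404, adjusted p in edgeR 0.0457). Atp5g3 (ENSMUSG00000018770, chr2:73908447-73911326, minus strand) encodes the c-ring subunit, and 3 genes encode the same mature c protein. It measured 267 to 296 CPM (median 275) in control and 288 to 311 CPM (median 293) in mimic libraries, with 0.10 (SE 0.0341, adjusted p in edgeR 0.0419). Control 1, at 296 CPM, was the control that overlapped the mimic libraries. None of these 3 genes kept an edgeR adjusted p under 0.05 when any single one of controls 3, 4, 5 and 6 or of mimics 1, 2, 4 and 6 was left out, and 1 of them did without mimic 5.

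The other genes of the c ring did not pass: Atp5g1 had a log2 fold change of 0.05 (edgeR adjusted p = 0.648) and Atp5g2 had -0.14 (0.441). Of the c-ring messages in control libraries, Atp5g3 stood at 127 CPM per kb, Atp5g1 at 3.18 and Atp5g2 at 1.2. The length covers all annotated exons, 2181 bases for Atp5g3 and 4912 for Atp5g1, so these ratios depend on the annotation. Without division by length the control means were 276 CPM for Atp5g3, 15.6 for Atp5g1 and 2.00 for Atp5g2. In the catalytic head, Atp5a1 had 0.04 (0.535), Atp5b had -0.02 (0.835) and the rotor subunit Atp5c1 had 0.08 (0.136). Atpif1, the inhibitor of ATP hydrolysis, is not a member by name and measured 81.2 ± 10.5 CPM in control and 76.6 ± 2.29 CPM in mimic libraries (mean ± SD, n = 6), with -0.08 (0.429).

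**Figure D2:**
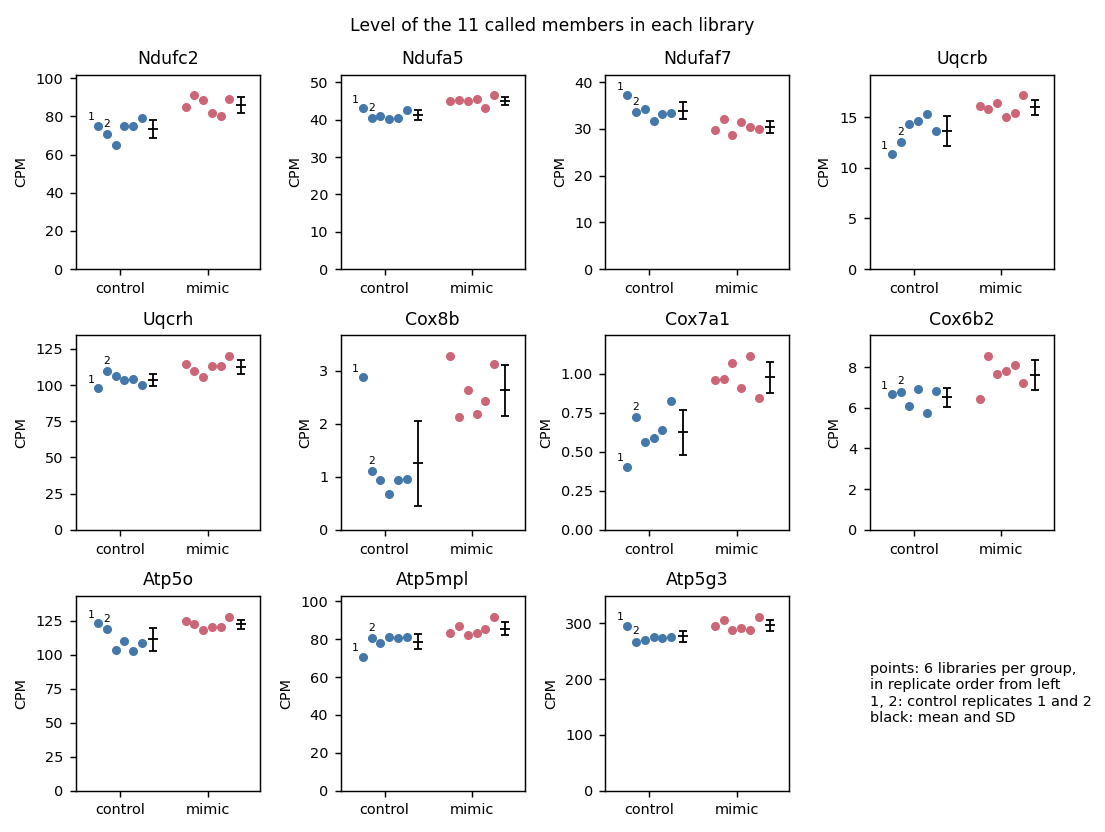
Level in CPM (vertical axes, from 0) of the 11 nuclear members that passed the test, in the 6 control and 6 mimic libraries. Points are libraries in replicate order, controls 1 and 2 are numbered, and black marks are the mean and SD. Control 1 lies above the other controls in Cox8b, Atp5g3, Atp5o, Ndufaf7 and Ndufa5 and below them in Atp5mpl, Uqcrb, Uqcrh and Cox7a1.

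The mitochondrially encoded genes stood far above the nuclear members in level. In control libraries the 7 tested genes ran from 1745 CPM per kb for mt-Nd4 to 6301 for mt-Cytb, with a median of 2778, against a median of 38.2 for the nuclear members. Cytochrome b, the core of complex III, gave 25.6% of the counts of the mitochondrial genes, and mt-Co1, the catalytic subunit of complex IV, gave 23.6%. The complex I subunits mt-Nd5 and mt-Nd1 gave 13.7% and 13.6%, mt-Nd2 gave 10.1%, mt-Nd4 gave 8.48% and mt-Nd6 gave 4.97%. mt-Nd6 is the one mitochondrial gene on the minus strand, and its end overlaps mt-Nd5 on the other strand. Whether counting used the strand was not given in the sources used here, so their shared stretch cannot be assigned.

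The other 6 genes, mt-Co2, mt-Atp8, mt-Atp6, mt-Co3, mt-Nd3 and mt-Nd4l, were listed at 0 in all 12 libraries. They are neighbours, from position 7013 to 10173 of chromosome M, between mt-Co1, with at least 100550 counts in every library, and mt-Nd4, with at least 33928. In 5 of them nearly all 50-base stretches, 98% to 100%, also occur in an annotated transcript of another gene, but in mt-Atp8 the share was 0%. The share was 62.2% in mt-Nd4 and 51.1% in mt-Co1, which were nonetheless counted. The zeros are therefore listed as such and are not read as absence of the transcripts, and no fold was computed for these genes.

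None of the 7 tested mitochondrial genes passed: by edgeR 0 rose and 0 fell, 0 reached an unadjusted p under 0.05, and DESeq2 called 0. mt-Cytb measured 5182 to 8353 CPM (median 7773) in control and 6478 to 7808 CPM (median 7158) in mimic libraries. Its log2 fold change was 0.00 (SE 0.105, adjusted p in edgeR 0.997, 95% interval -0.22 to 0.23). mt-Nd5 measured 2878 to 4690 CPM (median 4260) against 3220 to 4152 CPM (median 3716), with -0.08 (0.673, 95% interval -0.32 to 0.16). In each of these genes the mimic libraries lay inside the control range.

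mt-Co1 measured 5078 to 7617 CPM (median 7103) in control and 6019 to 7400 CPM (median 6606) in mimic libraries, with a log2 fold change of 0.01 (edgeR adjusted p = 0.944). For mt-Nd1 the log2 fold change was 0.05 (0.880), for mt-Nd2 0.00 (1.00), for mt-Nd4 -0.02 (0.931) and for mt-Nd6 -0.03 (0.938). The 95% intervals of the 7 genes were wide, reaching from -0.42 to 0.43 in all.

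As a share of all counts, the mitochondrial genes gave 1.98% in control 1, 2.26% in control 2 and 2.96% to 3.32% in controls 3 to 6, and 2.49% to 3.13% in the mimic libraries. The group means were equal at this precision, 2.83% ± 0.569 in control and 2.83% ± 0.233 in mimic (SD, n = 6). The nuclear members gave 0.902% ± 0.0491 and 0.923% ± 0.0287. The log2 ratio of mitochondrial to nuclear member counts was 1.02 in control 1, 1.25 in control 2, 1.77 to 1.94 in controls 3 to 6 and 1.35 to 1.82 in the mimic libraries, and the group means differed by -0.01.

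The mitochondrial members are GC-poor, with a median GC content of 37.1% (34.1% to 39.9%), while the nuclear members had a median of 50.0% (36.7% to 63.3%) and all tested genes one of 49.4%. The mean log2 deviation of the 7 mitochondrial genes from their average followed the GC slope across the 12 libraries (Pearson's r = -0.96, Spearman's rho = -0.98, and r = -0.90 without controls 1 and 2, the farthest in slope). That of the nuclear members rose with it less tightly (r = 0.70, rho = 0.65, r = 0.56 without controls 1 and 2). The libraries share their depth and scaling, and these correlations are given as a description. Controls 1 and 2 had mitochondrial deviations of -0.53 and -0.34, against 0.09 to 0.27 in controls 3 to 6 and -0.20 to 0.17 in mimic libraries. For the nuclear members the values were 0.11 and 0.02, against -0.08 to -0.06 and -0.02 to 0.08.

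**Figure D3:**
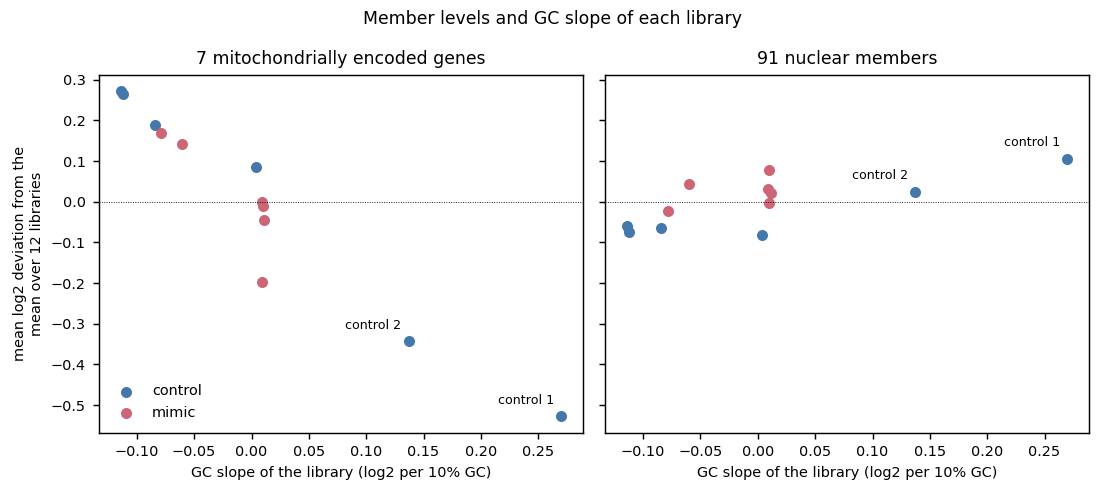
Mean log2 deviation of the 7 mitochondrially encoded (left) and 91 nuclear (right) members in each of the 12 libraries, plotted against the library's GC slope (log2 per 10 percentage points of GC). Control 1 lies farthest to the right in both panels, lowest at left (-0.53) and highest at right (0.11).

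Offsets fitted to each library's GC trend shrank the mitochondrial deviations of controls 1 and 2 to -0.16 and -0.13, beside 0.02 to 0.09 in controls 3 to 6 and -0.13 to 0.04 in mimic libraries. The nuclear deviations changed little, to 0.09 and 0.02 in controls 1 and 2, beside -0.09 to -0.06 and -0.03 to 0.08. Within the nuclear members, the distance of control 1 from controls 3 to 6 was greatest in the GC-rich members: its deviation there was 0.18 against -0.12 to -0.10, and in the GC-poor members 0.03 against -0.06 to 0.00. Under the offsets 5 members rose and 2 fell among the 45 GC-poor genes, against 5 and 1 without them, and 9 rose and 0 fell among the 46 GC-rich genes, against 5 and 0. Of all tested genes 16% were higher and 15.8% lower under the offsets, and 11.5% and 10.7% without them. Members called under the offsets and not without them included Ndufb11, an accessory subunit of complex I (log2 fold change 0.16, edgeR adjusted p = 0.00756), Cox8a (0.12, 0.00240) and Uqcrc1 (adjusted p = 0.0125). Among the lower ones was Atp5s, known as coupling factor B (-0.21, 0.00426). Calls lost were Atp5o (0.0618) and Atp5mpl (0.0993).

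**Figure D4:**
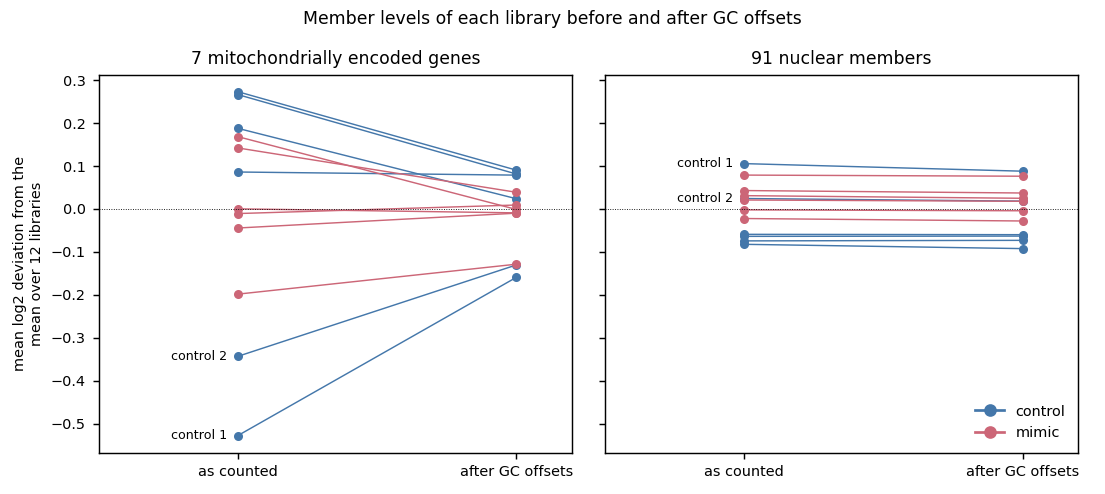
Mean log2 deviation of the mitochondrially encoded and nuclear members in each library as counted and after the GC offsets. Controls 1 and 2 move from -0.53 and -0.34 to -0.16 and -0.13 for the mitochondrial genes, and the nuclear values of the libraries hardly move.

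When the GC slope of each library was entered as a covariate, an alternative chosen after the slopes had been seen, the slope itself was called in 50 of the 91 nuclear members, in 7 of 7 mitochondrial genes and in 7049 of 18847 tested genes. The slope was computed from the counts of these same libraries, so its calls are a description and no independent test of the trend. The median coefficient was 0.47 for the nuclear and -1.88 for the mitochondrial members (log2 per unit of slope). The treatment was then called higher in 28 nuclear members (30.8%, against 18.1% of all tested genes) and lower in 2 (2.2% against 17.7%), where 35.8% of all tested genes were called in all.

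Leaving out controls 1 and 2 moved the comparison most. Both were singled out with their GC slopes known, and they were also the controls with the highest mean deviation of the nuclear members (0.11 and 0.02, against -0.08 to -0.06 in controls 3 to 6), so the counts below rest in part on which controls were kept. Against controls 3 to 6, 37 of the 91 nuclear members rose and 2 fell, or 42.9%, where 31.3% of all tested genes were called (16.1% higher and 15.2% lower). The median log2 fold change of the nuclear members was then 0.08, beside -0.01 over all tested genes. By complex, 16 members of complex I, 0 of complex II, 6 of complex III, 7 of complex IV and 8 of complex V rose. In 25 of the 91 members (27.5%) all 6 mimic libraries lay above controls 3 to 6, at a background of 12.8%, and in 1 (1.1%) they lay below, at a background of 10.5%. Among the core subunits the log2 fold changes were then 0.17 for Ndufs7 and 0.17 for Ndufs8, both past the test, and Ndufs3 had 0.10, Uqcrc1 0.11 and Atp5a1 0.08, which passed as well. The other 9 core subunits named above did not pass: Ndufv2 had 0.08, Uqcrfs1 0.07, Atp5b 0.04, Atp5c1 0.04, Cox5a 0.03, Ndufv1 0.02, Cox5b 0.02, Ndufs1 -0.01 and Uqcrc2 -0.04. In complex IV the widely expressed Cox8a (0.19), Cox4i1 (0.15) and Cox6b1 (0.11) passed. None of these 8 genes passed in the comparison as first given, with all 12 libraries and no correction for GC content. Cox8b reached 1.57.

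In the same fit the mitochondrial genes had the opposite sign, with a median log2 fold change of -0.17. Of the 7 genes 3 fell: mt-Nd5 by 0.24 on the log2 scale (edgeR adjusted p = 0.0276), mt-Nd4 by 0.16 (0.0206) and mt-Cytb by 0.16 (0.0294). The values of the other genes were -0.25 for mt-Nd6 (0.0772), -0.21 for mt-Nd2 (0.181), -0.17 for mt-Nd1 (0.302) and -0.14 for mt-Co1 (0.098). The log2 ratio of mitochondrial to nuclear member counts differed by -0.26. The GC slopes of controls 4 to 6 lay below those of every mimic library, and control 3 lay within the mimic range. With both the slope and all 12 libraries in the fit mt-Nd5 alone was called (-0.12, 0.0448). The part of the GC trend in the lower mitochondrial values and in the 37 higher nuclear calls was not tested. As a share of the mitochondrial counts, within which depth cancels, mt-Nd5 gave 13.5% to 14.4% in the control and 13% to 13.5% in the mimic libraries, without overlap. This gene was looked at after its call, and the shares of the other 6 counted genes overlapped between the groups.

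Other settings moved the count of called nuclear members in either direction, and the share of all tested genes moved with some of them. Upper-quartile scaling gave 6 higher and 1 lower, where 23.3% of all tested genes were called. Scaling on the nuclear genes alone gave 9 and 1 (22.3%), median-ratio factors 11 and 1 (22.2%), and DESeq2 13 and 1 (23.7%). No filter on low counts gave 9 and 1 (11.1%). Against a minimum fold change of 1.2, Cox8b alone was called (5.49%). Offsets for both GC content and transcript length gave 23 higher and 2 lower (32%). With the replicate number as a block 6 rose and 1 fell (19.4%), and with the block and the GC offsets together 20 rose and 2 fell (30.8%).

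With both directions pooled, the members' share lay above that of all genes only without controls 1 and 2, among all the settings tried. For the genes called higher alone the order depended on the setting. The members' higher share was below that of all genes as reported (11% against 11.5%), under upper-quartile scaling (6.59% against 10.3%), scaling on the nuclear genes (9.89% against 11.4%), the minimum fold (1.1% against 3.62%), the GC offsets (15.4% against 16%) and the block (6.59% against 10.3%). It was above it under median-ratio factors (12.1% against 11.7%), DESeq2 (14.3% against 12.4%), no filter (9.78% against 5.95%), GC and length offsets (25.3% against 16%), the block with GC offsets (22% against 15.6%), the GC slope as a covariate (30.8% against 18.1%) and without controls 1 and 2 (40.7% against 16.1%). The members' lower share was below that of all genes in every one of these settings.

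**Figure D5:**
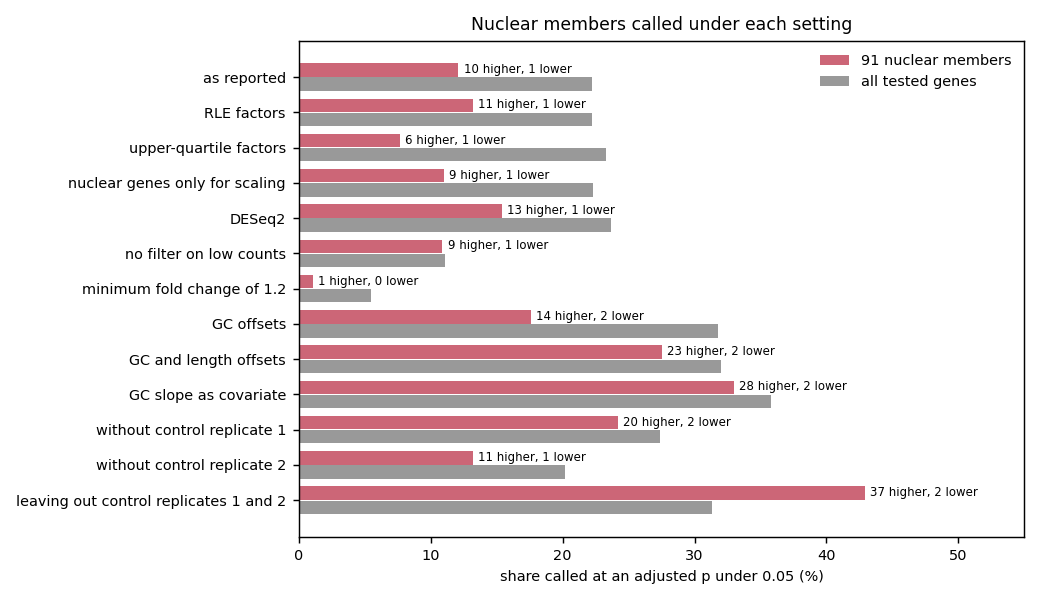
Share of the nuclear members called in either direction under 13 settings of the comparison (bars, with the counts higher and lower) beside the share of all tested genes called under the same setting. The members' share lies below that of all genes in the comparison as reported (12.1% against 22.2%) and above it when controls 1 and 2 are left out (42.9% against 31.3%).

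Other genes around the pathway were called at shares of 0% to 9.09% by list, where the share was 22.2% over all tested genes, and the lists were not compared by a test. Of 43 tested assembly factors and cytochrome c genes 2 rose and 1 fell (6.98%, median log2 fold change -0.01). Cmc2 and Coa5, which serve the biogenesis of complex IV, rose by 0.28 (edgeR adjusted p = 0.0260) and 0.11 (0.0416) on the log2 scale, and Lyrm7, a factor that carries the Rieske protein into complex III, fell by 0.27 (SE 0.071, 0.0114). Of 77 genes of the mitochondrial ribosome 4 rose and 3 fell (9.09%, median 0.00), among them Mrpl18 (0.19, 0.00233) and Mrpl54 (0.15, 0.0494) upward and Mrps6 (-0.19, 0.00524) and Mrps9 (-0.16, 0.00295) downward. Of 33 genes of mitochondrial gene expression 1 rose and 1 fell (6.06%), the higher one being Polg, the polymerase of mitochondrial DNA (0.23, 0.00284). The lower one was Mterf1b, a member of the mitochondrial transcription termination factor family, with -0.93 (0.0105) on a mean of 13.3 counts per library. Of 18 genes of the citrate cycle and pyruvate dehydrogenase edgeR called 0, with 3 higher and 1 lower at an unadjusted p under 0.05, and DESeq2 called 2 higher and 1 lower.

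A sequence feature that the choice by name did not use was counted in the promoters of the nuclear members. A word of 10 bases, GCGCA followed by any base and then GCGC, the core of the palindrome known for the factor NRF1, was sought on both strands of the RefSeq promoters (build GRCm38.p6), from 250 bases before to 50 after each gene's start. It occurred in 19 of the 74 tested nuclear members with a promoter in that table (25.7%), in 1255 of 12830 tested genes (9.78%) and in 1402 of 27025 genes in all (5.19%). This spelling was chosen after other spellings had been looked at. The shares were 9 of 40 for complex I, 2 of 3 for complex II, 1 of 5 for complex III, 1 of 13 for complex IV and 6 of 13 for complex V. The windows below hold the word in capitals, 5′ to 3′ on the strand of the gene, for a gene that rose and for one that did not pass the test. Starts are those of RefSeq and can differ from the gene coordinates given above. The Ndufa5 window lies before its RefSeq start but inside the coordinates printed for that gene.

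Ndufa5, chr6:24527697-24527726 (-): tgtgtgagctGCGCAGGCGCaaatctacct

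Sdha, chr13:74350276-74350305 (-): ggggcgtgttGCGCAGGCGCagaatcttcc

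The median log2 fold change was 0.02 in members that hold it and 0.03 in those that do not, and 3 of the 8 higher members with a promoter in the table held it. A match is a description of the letters and says nothing of binding.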

How the data were processed

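The authors aligned 50-base single-end reads of TruSeq v2 poly(A) libraries to mm10 with STAR (2.5.2b), counted reads per gene with featureCounts of Subread (1.5.1) and checked them with FastQC (0.11.5), per the submitters' processing notes and the study's methods, and deposited whole-number counts per gene and library. A normalized table of the series, with 12 sample columns, was not used here.

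Counts were tested in R (4.3.3) with edgeR (4.0.16), as quasi-likelihood F-tests with TMM factors on 6 mimic and 6 control libraries and Benjamini-Hochberg adjustment over the 18847 genes that held 5 counts or more in 6 or more libraries. A gene passed at an adjusted p under 0.05. CPM used the TMM-scaled library sizes, and levels per kb the length of all annotated exons of a gene, with overlaps counted once. GC offsets came from a loess per library on gene GC content. Alternatives included DESeq2 (1.42.0), other scalings, no filter, a minimum fold of 1.2, offsets, the replicate block, each library left out, and controls 1 and 2 left out. The edgeR and DESeq2 fits were tested on simulated data. Sequence shared between genes was sought in annotated transcripts only. Named were the 13 mitochondrial and 4 Sdh genes, up to 3 called members per direction and complex with a mean of at least 100 counts, fixed lists of isoforms and core subunits, and up to 2 called genes per direction in each pathway list. Cox8b and Cox7a1, with fewer counts, came in as isoforms, and Ndufb11, Atp5s, Ndufaf4, Ndufab1, Gfap and Mterf1b were named after their values were seen. Not every named gene is reported here. The members and lists were chosen with earlier results of these data known.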

Additional observations from a re-analysis of the deposited data

Results flagged for a closer look

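Over the named members and 6 measures of each library, 108 groups of 6 libraries were checked for a library whose gap to the nearest of the others exceeded Dixon's 95% critical value, taken as a share of the group's range. In 10 groups (9.26%) it did, where chance gives about 5%. Control 1 was the distant library in 6 of the 10. It was high in Cox6a1 (244.562 CPM, the other controls 159 to 189), Cox8b (2.87838 CPM, others 0.681 to 1.10), Atp5g2 (2.62589 CPM, others 1.79 to 2.02), Atp5g3 (295.817 CPM, others 267 to 276) and Ndufs8 (61.961 CPM, others 45.8 to 50.9), and low in Atp5mpl (70.7476 CPM, others 78.1 to 81.2). Mimic 6 was high in Cox6b1 (207.734 CPM, other mimics 181 to 190), Cox7a2 (127.804 CPM, others 111 to 116) and Uqcrc2 (236.241 CPM, others 224 to 228). Mimic 4 was low in Sdhd (140.012 CPM, others 146 to 150). Control 1 was also the library with the greatest GC slope (0.27), and whether the slope accounts for these values was not tested.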

How the results depend on the processing

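Counts of calls moved with the settings. For the named genes, 1228 refitted values stayed on their side of the threshold, 101 lost a call, 38 gained one and 1 turned sign with a call: mt-Cytb, -0.16 without controls 1 and 2. As reported, 10 nuclear members were higher and 1 lower (complexes I, III, IV and V: 2, 2, 3 and 3 higher). Upper-quartile factors gave 6 higher (III 1, V 0). No filter gave 1 in V. A minimum fold of 1.2 gave 1 higher (IV 1, I 0, III 0, V 0) and 0 lower (I 0). GC offsets gave 5 in I and 2 lower (V 1). GC and length offsets gave 23 higher (I 7, III 5, IV 7) and 2 lower (V 1). Leaving out controls 1 and 2 gave 37 higher (I 16, III 6, IV 7, V 8), 2 lower (V 1), 3 mitochondrial genes lower and a complex III median of 0.11. The GC slope as a covariate, chosen after the data had been seen, gave 28 higher (I 10, III 4, IV 6, V 8), 2 lower (V 1) and 1 mitochondrial gene lower. The causes were not tested. Without single libraries the counts higher ran from 5 to 20 (I 2 to 9, III 0 to 2, IV 2 to 5, V 0 to 4), the counts lower from 1 to 2 (V 0 to 1), the nuclear median from 0.02 to 0.06, those of complexes I to V from 0.01 to 0.06, -0.01 to 0.02, 0.05 to 0.08, 0.01 to 0.07 and 0.02 to 0.08, the mitochondrial median from -0.10 to 0.05 and the log2 ratio of mitochondrial to nuclear counts from -0.13 to 0.05.

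With the replicate number as a block, 6 nuclear members were higher (III 1, V 1), and with the block and GC offsets 20 were higher (I 7, III 4, IV 5), 2 lower (V 1) and 1 mitochondrial gene lower, mt-Nd5 (-0.10, edgeR adjusted p = 0.0203). Same-numbered libraries correlated in their deviations at 0.32, -0.22, 0.06, -0.10, -0.13 and -0.18, and none correlated best with its own number. The deviations of the controls also carry the GC trend of controls 1 and 2. The check therefore cannot show what a shared number marks. Cox8b was called in 24 of 24 alternatives, Ndufc2, Ndufa5, Cox7a1 and Ndufaf7 in 23, Uqcrb in 22, Cox6b2 and Uqcrh in 16, Atp5o in 12, Atp5g3 in 11 and Atp5mpl in 8. Low counts limit Cox7b2, Ndufa4l2, Cox6a2 and Cox7a1, with means of 5.75 to 24.2 counts.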
